A study of Homo sapiens with 8 samples.

Results

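The 898 regions described here are all CHD4-bound regions on chromosome 19, out of 18808 regions in the whole genome. They come from the authors' 6 lists of peaks in hg19 coordinates, 1 list per library. Peaks of any of the lists that shared 1 bp or more were joined into a region, and every merged region on chromosome 19 was kept, so no measured value chose the members. The chromosome was divided into 19p13.3 (0 to 7 Mb), 19p13.1-p13.2 (7 to 20 Mb), 19q13.1-q13.3 (32 to 52 Mb) and the zinc finger clusters (20 to 24 Mb and 52 Mb to the end). The band names follow these limits in Mb and were not checked against a band map. They hold 203, 197, 395 and 96 of the regions, and the remaining 7 lie between 24 and 32 Mb, around the centromere. Within the zinc finger clusters, the stretch from 20 to 24 Mb belongs to the short arm and the one beyond 52 Mb to the long arm.

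CHD4 binding was mapped by ChIP-seq (sequencing of DNA that is pulled down with an antibody) in SCC9 cells, an established human line from squamous carcinoma of the tongue. The group called lacZ is labelled as lacking DOC1 and the group called DOC1 as having it. Each group has 3 CHD4 libraries, numbered 1 to 3, and 1 IgG library that was not analysed here as a sample of its own. All cells were grown in serum with hydrocortisone and fixed with formaldehyde. The sources used here do not state how DOC1 or lacZ was brought into the cells, or whether the libraries came from separate cultures or clones. The p-values therefore measure only how these libraries vary, and that variation may be technical. Peak lists hold no expression values, so the cell type was not checked against its markers.

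CHD4 is the ATPase of NuRD, a complex for nucleosome remodelling and histone deacetylation, which slides nucleosomes and removes acetyl groups from histones. DOC1 (CDK2AP1) is one of the small NuRD subunits, and the comparison addresses where CHD4 binds with and without it. Chromosome 19 is the most gene-dense human chromosome. It also carries large clusters of genes for KRAB zinc finger proteins, repressors that work through the corepressor TRIM28, to which NuRD can bind. The part beyond 52 Mb holds, besides zinc finger genes, the leukocyte receptor genes.

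The lists held between 2812 and 11032 peaks each. The number of reads at a summit could be recovered from the deposited fold and p-value for at least 99.9% of the peaks of every list. On chromosome 19 its median was 35, 25 and 21 reads in lacZ 1, lacZ 2 and lacZ 3 and 14, 15 and 31 reads in DOC1 1, DOC1 2 and DOC1 3. A region counted as absent from a library is one with no peak in that library's list, whatever reads it may hold. DOC1 2 stood apart from the other lists: 61.2% of its regions were shared with no other library, and chromosome 13 held 7.42% of its peaks against 1.32 to 1.57% elsewhere. The main group differences in shares and the counts of regions in every library of 1 group and none of the other are given with and without it. With 3 libraries against 3, a two-sided exact permutation test over the 20 assignments cannot give a p below 0.1, so no comparison of the 2 groups could pass a threshold of 0.05.

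Chromosome 19 carries many CHD4 regions for its length but few for its genes. It held 15.2 regions per Mb, second only to chromosome 17 among the 23 chromosomes compared (16.6 per Mb), against 6.17 per Mb over all chromosomes. In RefSeq (GRCh38, used only to count genes per chromosome) it has 1451 of 20052 protein-coding genes, the second-highest number. It had rank 10 by number of regions, and its 0.619 regions per protein-coding gene put it at rank 19 of 23, against 0.938 over the genome. It also holds 265 of the 566 protein-coding genes named as zinc fingers by their symbols. Neighbouring regions lay close, with a median gap of 16.99 kb, and 276 gaps were shorter than 5 kb. Regions had a median length of 408.5 bp, between 219 and 2077 bp.

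A smaller part of the CHD4 peaks lay on chromosome 19 in each DOC1 library than in any lacZ library. The chromosome held 431 of 7027 peaks in lacZ 1 (6.13%), 195 of 2812 in lacZ 2 (6.93%) and 308 of 4723 in lacZ 3 (6.52%). It held 397 of 7834 peaks in DOC1 1 (5.07%), 97 of 3448 in DOC1 2 (2.81%) and 577 of 11032 in DOC1 3 (5.23%). The groups did not overlap, DOC1 2 was the lowest by a wide margin, and the ratio of the group means was 0.669, the lowest of the 23 chromosomes. The mean was 6.53 ± 0.40% with lacZ and 4.37 ± 1.35% with DOC1 (SD, n = 3, two-sided exact permutation p = 0.1, Benjamini-Hochberg adjusted p = 0.288 for 23 chromosomes). The DOC1 libraries lay below the lacZ libraries on 21.7% of the chromosomes and above them on 13%. Without DOC1 2 the difference went from -2.16 to -1.38 percentage points, and the groups still did not overlap.

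**Figure D1:**
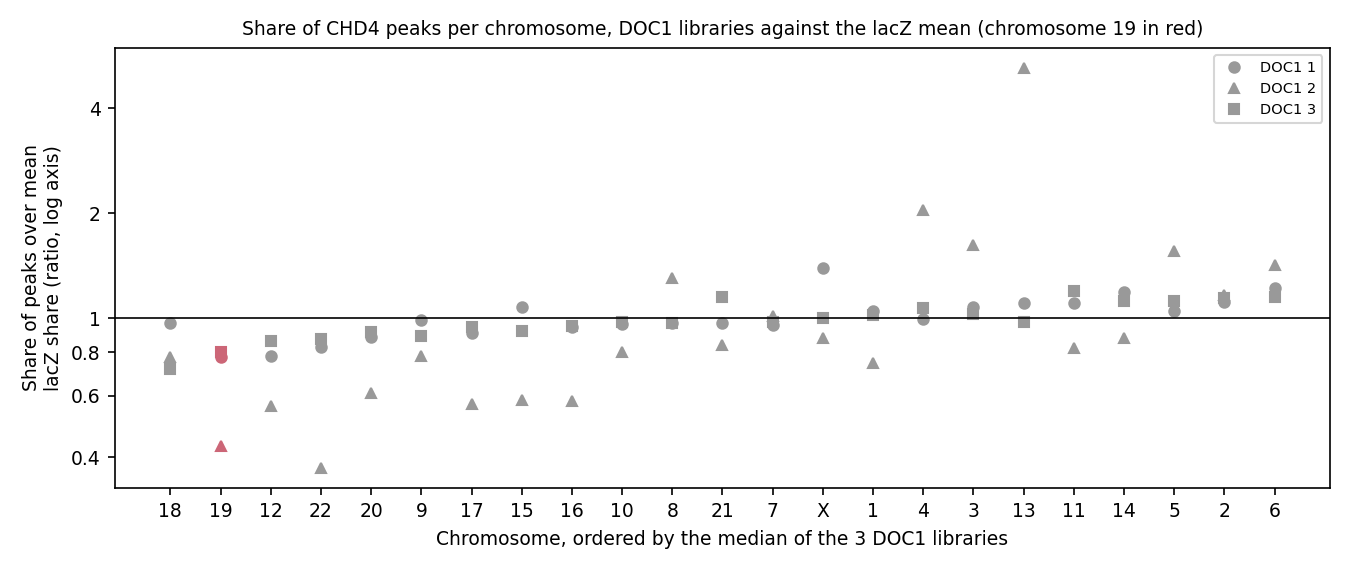
Share of peaks per chromosome in each DOC1 library, divided by the mean share of the 3 lacZ libraries (log axis, 1 = equal), with circles, triangles and squares for DOC1 1, DOC1 2 and DOC1 3. Chromosome 19 (red) lies at 0.776, 0.431 and 0.801, and the highest point is chromosome 13 in DOC1 2.

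Chromosome 19 was set against chromosomes 16, 17, 20 and 22, whose ratios of group means were 0.827, 0.807, 0.803 and 0.693. The groups overlapped on chromosome 17 (exact permutation p = 0.2) and lay apart on the other 3. By number of protein-coding genes, which is not gene density, chromosomes 1, 11 and 2 had ranks 1, 3 and 4. Their ratios were 0.939, 1.04 and 1.14. Chromosome 12, at rank 8, had 0.735, and chromosome 18, at rank 22, had 0.819. The groups lay apart on chromosome 2, with DOC1 above, and on chromosome 12, with DOC1 below. They overlapped on chromosomes 1, 11 and 18. The part of gene content in these ratios was not tested. The log2 ratio of the chromosome 19 share to the summed share of chromosomes 16, 17, 20 and 22 was -1.70, -1.71 and -1.67 in the lacZ libraries, in the order of their numbers. The DOC1 libraries had -1.90, -2.06 and -1.91, so that every DOC1 library lay below every lacZ library. The difference of -0.26 on the log2 scale (exact permutation p = 0.1, and 0.129 after Benjamini-Hochberg adjustment over the 9 ratios compared) stood beside SDs of 0.02 and 0.09. It was -0.21 without DOC1 2. Against chromosome 22 alone the groups overlapped, with a difference of -0.01 (exact permutation p = 0.9) and SDs of 0.09 and 0.18. Without DOC1 2 that difference was -0.11, and the groups did not overlap (exact permutation p = 0.2).

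In both parts of 19p13, and not in 19q13.1-q13.3 or the zinc finger clusters, every DOC1 library had a lower share than every lacZ library. In 19p13.3, the densest part of the chromosome with 29 regions per Mb, lay 105, 65 and 93 peaks of lacZ 1, lacZ 2 and lacZ 3, or 1.49%, 2.31% and 1.97% of their lists. DOC1 1, DOC1 2 and DOC1 3 had 105, 19 and 115 peaks there, or 1.34%, 0.551% and 1.04%. No DOC1 library reached the lowest lacZ library, although DOC1 1 came close. Group means were 1.92 ± 0.41% with lacZ and 0.978 ± 0.399% with DOC1 (SD, n = 3), a ratio of 0.508. The exact permutation p was 0.1, with a Benjamini-Hochberg adjusted p of 0.3 over the 5 parts of chromosome 19 and the 22 other chromosomes. The difference was -0.947 percentage points and -0.734 without DOC1 2 (exact permutation p = 0.2).

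In 19p13.1-p13.2 the lacZ libraries were nearly equal, with 1.48%, 1.60% and 1.48% of their peaks in lacZ 1, lacZ 2 and lacZ 3. DOC1 1, DOC1 2 and DOC1 3 placed 0.957%, 0.522% and 1.11% of their peaks there. The groups lay apart by more than the lacZ spread, at 1.52 ± 0.07% against 0.862 ± 0.303% (SD, n = 3, exact permutation p = 0.1, adjusted p = 0.3 as above). The ratio of means was 0.567, and the difference went from -0.659 to -0.489 percentage points without DOC1 2.

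In 19q13.1-q13.3, the part with the most regions, the groups overlapped. Shares were 2.62%, 2.42% and 2.52% in lacZ 1, lacZ 2 and lacZ 3 and 2.17%, 1.36% and 2.44% in DOC1 1, DOC1 2 and DOC1 3. The difference of -0.528 percentage points (exact permutation p = 0.2, adjusted p = 0.36) was -0.215 without DOC1 2. The overlap rested on DOC1 3 standing just above lacZ 2. The groups lay apart at a −log10 q of at least 3 (-0.537), with chromosomes 9 and 13 left out of the total (-0.547) and without DOC1 3 (-0.752, exact permutation p = 0.1 each). They overlapped in lists of equal length (-0.486, exact permutation p = 0.3) and in covered base pairs (-0.477, exact permutation p = 0.2). The zinc finger clusters held 0.527%, 0.569% and 0.529% of the lacZ peaks and 0.587%, 0.348% and 0.607% of the DOC1 peaks, in library order. Here DOC1 1 and DOC1 3 lay above all lacZ libraries and DOC1 2 below them. The difference of -0.0274 percentage points (exact permutation p = 1) turned to 0.0556 without DOC1 2. Of the peaks in these clusters, those between 20 and 24 Mb numbered only 1 to 7 per library. Between 24 and 32 Mb each library had 1 peak except DOC1 3, which had 4.

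**Figure D2:**
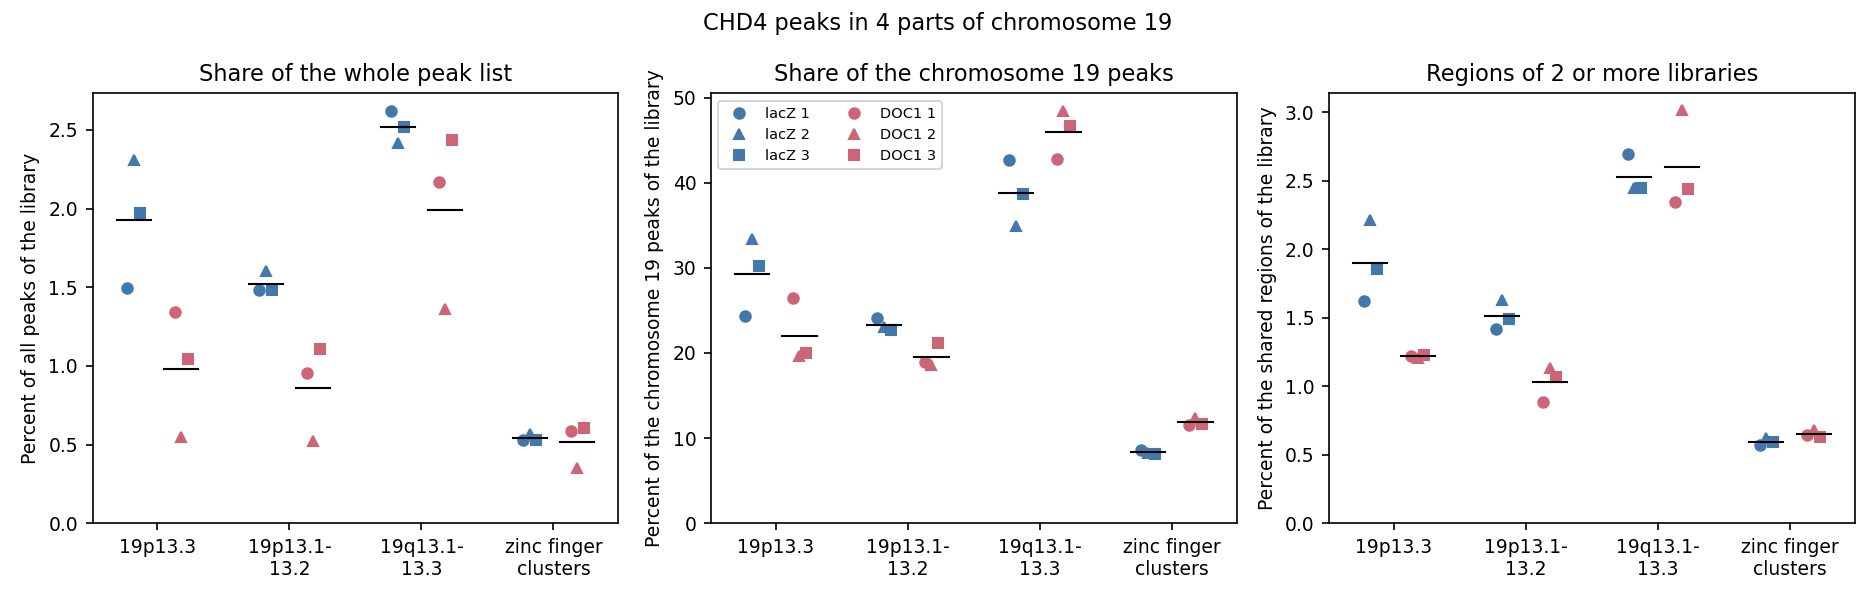
Peaks in 4 parts of chromosome 19 per library (blue lacZ, red DOC1, symbols for library numbers, lines for group means): percent of all peaks (left), percent of the chromosome 19 peaks (middle) and percent of the regions that 2 or more libraries share (right). In the left panel both parts of 19p13 have every DOC1 library below every lacZ library, and in the middle panel the zinc finger clusters lie at 8.12 to 8.58% with lacZ and 11.6 to 12.4% with DOC1.

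Among the chromosome 19 peaks themselves, the DOC1 libraries had a smaller part in 19p13 and a larger part in 19q13.1-q13.3 and the zinc finger clusters. This comparison does not depend on how many peaks a library has on other chromosomes. The zinc finger clusters made up 8.58%, 8.21% and 8.12% of the chromosome 19 peaks in lacZ 1, lacZ 2 and lacZ 3 and 11.6%, 12.4% and 11.6% in DOC1 1, DOC1 2 and DOC1 3. All 3 DOC1 libraries, DOC1 2 among them, lay close together and above the lacZ libraries. Group means were 8.30 ± 0.25% and 11.9 ± 0.45% (SD, n = 3), a difference of 3.55 percentage points (exact permutation p = 0.1, unadjusted, 5 parts compared), and 3.30 without DOC1 2. In regions with peaks of both groups the clusters made up 8.97%, 8.50% and 8.87% of the chromosome 19 regions with lacZ. With DOC1 they made up 8.72%, 10.4% and 8.83%, so the groups overlapped there. That difference was 0.557 percentage points (exact permutation p = 0.6), and -0.00048 without DOC1 2. The counts behind single values are small. The 95% exact binomial interval, which covers counting error only, was 6.56 to 20.6% for the 12 of 97 peaks of DOC1 2 and 6.12 to 11.6% for the 37 of 431 peaks of lacZ 1.

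The share of 19p13.1-p13.2 among chromosome 19 peaks was 24.1%, 23.1% and 22.7% with lacZ and 18.9%, 18.6% and 21.1% with DOC1, in library order. Again no DOC1 library reached a lacZ library (difference -3.78 percentage points, exact permutation p = 0.1, and -3.29 without DOC1 2). The share of 19q13.1-q13.3 was 42.7%, 34.9% and 38.6% with lacZ and 42.8%, 48.5% and 46.6% with DOC1. These groups were parted only by the small gap between lacZ 1 and DOC1 1 (difference 7.23 percentage points, exact permutation p = 0.1). Without DOC1 2 this difference was 5.99 (exact permutation p = 0.2). For 19p13.3 the groups overlapped, with 24.4%, 33.3% and 30.2% against 26.4%, 19.6% and 19.9% (exact permutation p = 0.2), and the difference was -7.31 with DOC1 2 and -6.11 without it. Both parts of 19p13 together held 48.5%, 56.4% and 52.9% of the lacZ peaks of the chromosome and 45.3%, 38.1% and 41.1% of the DOC1 peaks. This is a difference of -11.1 percentage points between means with SDs of 3.97 and 3.62 (n = 3, exact permutation p = 0.1), and of -9.40 without DOC1 2 (exact permutation p = 0.2).

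Set against chromosomes 16, 17, 20 and 22, the parts of chromosome 19 did not go the same way. The ratio of the 19p13.3 share to the summed share of those chromosomes was 0.624 times as high with DOC1 as with lacZ, and that of 19p13.1-p13.2 was 0.697 times as high. For 19q13.1-q13.3 it was 0.991 times as high, with a log2 difference of -0.01 between means with SDs of 0.15 and 0.06 (exact permutation p = 1). For the zinc finger clusters it was 1.19 times as high, with log2 ratios of -5.24, -5.31 and -5.29 in lacZ 1, lacZ 2 and lacZ 3 and -5.01, -5.07 and -5.01 in DOC1 1, DOC1 2 and DOC1 3. Groups did not overlap for either part of 19p13 or for the zinc finger clusters (exact permutation p = 0.1 each, 0.129 after Benjamini-Hochberg adjustment over the 9 ratios). Without DOC1 2 the 4 ratios were 0.682, 0.740, 0.9992 and 1.21 in the order given, and the same 3 parts had groups that did not overlap.

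Part of the lower share lay in peaks that no other library had. Of the regions found in DOC1 2 alone, 15 of 2089 were on chromosome 19 (0.718%), while the other 5 libraries had between 4.87% and 5.81% of their unshared regions there. Regions that 2 or more libraries share were therefore taken by themselves, a choice made after seeing the data. Of these, chromosome 19 held 343 of 5422 in lacZ 1 (6.33%), 179 of 2575 in lacZ 2 (6.95%) and 249 of 3883 in lacZ 3 (6.41%). It held 276 of 5415 in DOC1 1 (5.10%), 80 of 1327 in DOC1 2 (6.03%) and 367 of 6851 in DOC1 3 (5.36%). DOC1 2 now lay above the other DOC1 libraries and still below each lacZ library. The difference was -1.07 percentage points, against -2.16 for all peaks (exact permutation p = 0.1). With DOC1 2 left out of the group mean it was -1.34 in these shared regions. With only regions that hold peaks of both groups, the shares were 6.28%, 7.01% and 6.41% with lacZ and 5.80%, 6.81% and 5.96% with DOC1. There the groups overlapped and the difference was -0.373 percentage points (exact permutation p = 0.4), or -0.682 without DOC1 2 (exact permutation p = 0.2). Asking for peaks of both groups removes regions of 1 group by construction.

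In the regions of 2 or more libraries the DOC1 libraries lay close together on 19p13.3, at 1.22%, 1.21% and 1.23% of the shared regions of DOC1 1, DOC1 2 and DOC1 3. The lacZ libraries had 1.62%, 2.21% and 1.85%. For 19p13.1-p13.2 the values were 0.886%, 1.13% and 1.07% with DOC1 and 1.42%, 1.63% and 1.49% with lacZ. For 19q13.1-q13.3 they overlapped, at 2.35%, 3.01% and 2.44% with DOC1 and 2.69%, 2.45% and 2.45% with lacZ. For the zinc finger clusters every DOC1 library lay above every lacZ library, at 0.646%, 0.678% and 0.628% against 0.572%, 0.621% and 0.592%, though DOC1 2 had only 9 such regions and lacZ 2 only 16. A region is counted as shared partly through the other libraries of its own group, so the 6 values are not independent of each other.

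Windows of 5 Mb placed the same pattern on a genome-wide scale. Over 522 windows with at least 10 peaks in all, DOC1 libraries lay below lacZ libraries in 10.3% and above them in 9.2%. On chromosome 19 they lay below in 5 of 11 windows and above in 0 of 11. The 5 were the 4 windows from 0 to 20 Mb and the window from 45 to 50 Mb. Without DOC1 2 they lay below in 6 windows of the chromosome and above in those from 50 to 55 and 55 to 60 Mb. In that setting, where groups lie apart more easily, they lay below in 14.2% of all windows, and the share above was not counted. The windows of chromosome 19 with DOC1 above therefore cannot be set against the genome. The first window, 0 to 5 Mb, had the most negative difference of all 522, with 1.32%, 1.96% and 1.76% of the peaks of lacZ 1, lacZ 2 and lacZ 3 and 1.17%, 0.348% and 0.916% of those of DOC1 1, DOC1 2 and DOC1 3. Its difference was -0.866 percentage points and -0.634 without DOC1 2. On chromosome 19 the highest difference was that of the window from 50 to 55 Mb, 0.296% with lacZ and 0.345% with DOC1, where the groups overlapped. After Benjamini-Hochberg adjustment over all 522 windows the smallest exact permutation p was 0.512.

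By fold, peaks on chromosome 19 ranked above the middle of their lists, and their local background was low in 19p13. The median fold enrichment of chromosome 19 peaks, as a percentile of the library's own list, was 61.8, 69.0 and 62.5 in the lacZ libraries and 58.4, 67.7 and 62.4 in the DOC1 libraries, in library order. All 6 stood above 50, the middle of any list, and the groups overlapped (exact permutation p = 0.6). By reads at the summit these peaks did not stand high. The median of the whole list was 38, 27 and 22 reads with lacZ and 15, 15 and 34 with DOC1, in library order. The chromosome 19 medians given above were equal to or below these in every library. Both parts of 19p13 had lower summit medians than 19q13.1-q13.3 in every library. Chromosome 19 held 9.02%, 11.0% and 9.31% of the 25% of peaks with the highest fold in the lacZ lists and 6.40%, 4.98% and 7.47% of those in the DOC1 lists, in library order. Of the 25% with the lowest fold it held 3.64%, 2.90% and 3.39% with lacZ and 3.64%, 0.927% and 3.68% with DOC1. The groups thus lay apart among the peaks of highest fold in each list (exact permutation p = 0.1) and overlapped among those of lowest fold (exact permutation p = 1). Without DOC1 2 the differences were -2.83 and 0.352 percentage points, so the second changed sign. Median peak width on the chromosome was 406, 320 and 306 bp with lacZ and 292, 315 and 403 bp with DOC1, close to 398, 318 and 307 bp and 289, 283 and 395 bp elsewhere.

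The local background is the number of reads against which the peak caller set the reads of a summit, here recovered from the fold and the p-value. At 19p13.3 peaks its median was 0.641, 0.522 and 0.565 times that at peaks on other chromosomes in lacZ 1, lacZ 2 and lacZ 3, and 0.636, 0.714 and 0.667 times in DOC1 1, DOC1 2 and DOC1 3. At 19p13.1-p13.2 it was 0.577, 0.522 and 0.520 times with lacZ and 0.545, 0.791 and 0.667 times with DOC1. At 19q13.1-q13.3 it was between 0.830 and 1.00 times in all 6 libraries, and at the zinc finger clusters between 0.830 and 1.01 times. Both parts of 19p13, where the DOC1 share was lower, thus had a lower background than 19q13.1-q13.3 and the zinc finger clusters in every library. Between the groups the ratio overlapped on both (exact permutation p = 0.2 each). The part of this background in the difference between the groups was not tested.

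**Figure D3:**
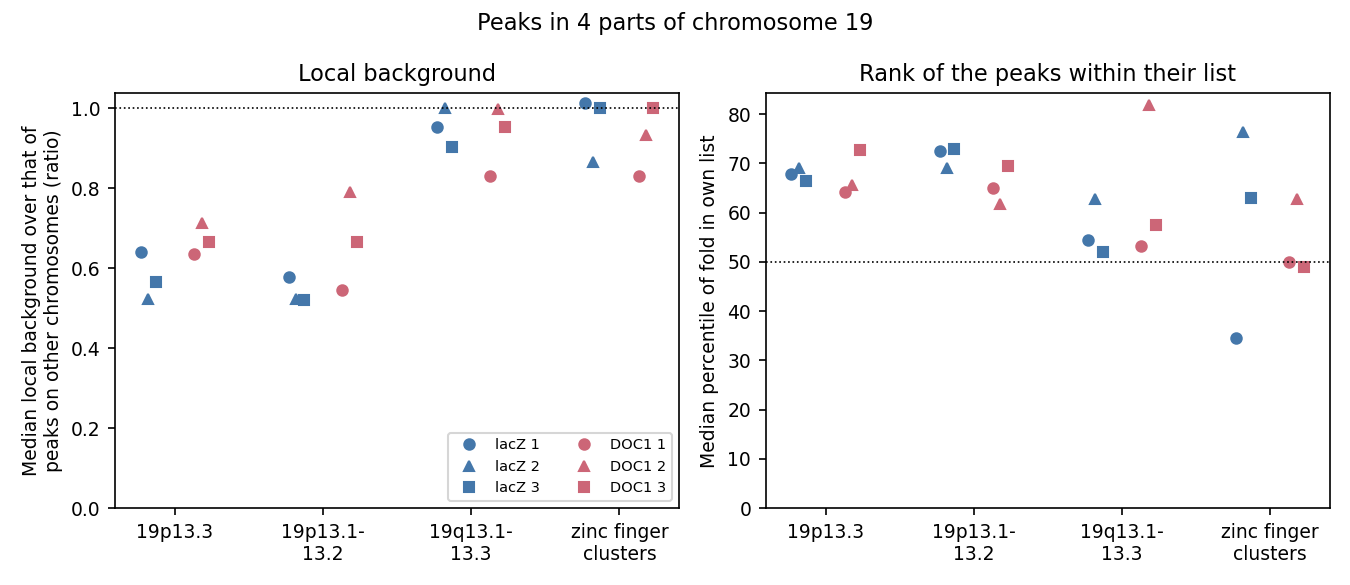
Median local background at peaks in 4 parts of chromosome 19, divided by that at peaks on other chromosomes (left, dotted line at 1), and median percentile of fold within the library's own list (right, dotted line at 50), per library (blue lacZ, red DOC1). Both parts of 19p13 lie at 0.520 to 0.791 on the left, below the other parts, and at 61.8 to 73.0 on the right.

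By occupancy, chromosome 19 resembled the rest of the genome, with somewhat more recurrent regions. Peaks of all 6 libraries met in 39 of the 898 regions (4.34%), against 2.75% of regions on all chromosomes. Another 47 (5.23%) lacked only a DOC1 2 peak, against 3.60% over all chromosomes. Regions of 1 library alone numbered 442 (49.2%, against 56.2%), of which 195 came from DOC1 3, 107 from DOC1 1 and 15 from DOC1 2. On chromosomes 16, 17, 20 and 22, regions of all 6 libraries made up 3.08%, 4.54%, 6.06% and 3.32%. Those of 1 library alone made up 51.6%, 48.0%, 45.3% and 53.1% there. Of the chromosome 19 regions of a library, 18.5%, 4.28% and 13.5% were found in lacZ 1, lacZ 2 and lacZ 3 alone and 27.9%, 15.8% and 34.7% in DOC1 1, DOC1 2 and DOC1 3 alone (exact permutation p = 0.2). For DOC1 2 this 15.8% stood against 61.2% over all chromosomes, while each other library was within 3 percentage points of its own genome-wide value.

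All 3 lacZ libraries and none of the DOC1 libraries had a peak in 13 of the 898 regions (1.45%, against 1.18% of all regions). The opposite held for 8 regions (0.891%, against 0.978%). Both shares were near those of the whole genome. Of the 13 lacZ regions 5 lay in 19p13.3, 2 in 19p13.1-p13.2, 4 in 19q13.1-q13.3 and 1 each in the zinc finger clusters and between 24 and 32 Mb. Of the 8 DOC1 regions 2, 0, 4 and 2 lay in the 4 parts in the same order. With DOC1 2 left out, which asks for fewer libraries, the DOC1 count became 80 (9.05%, against 11.96% of all regions). The lacZ count stayed at 13 (1.47%, against 1.34%). Without lacZ 1 the DOC1 count was 13 (1.56%, against 1.77%). The lacZ count was 42 without lacZ 2 (4.71%, against 3.60%) and 23 without lacZ 3 (2.67%, against 1.94%). It was 20 without DOC1 1 (2.52%, against 1.74%) and 38 without DOC1 3 (5.28%, against 3.78%). The shares over all regions thus rose in these settings too. In lists cut to equal length the lacZ count was 21 of 418 regions (5.02%, against 3.81% of all regions) and the DOC1 count 4 (0.957%, against 1.21%).

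With presence in 2 or 3 libraries of a group and none of the other, 56 regions (6.24%, against 4.49% of all regions) were found with lacZ and 85 (9.47%, against 11.5%) with DOC1. The parts differed: DOC1 regions of this kind made up 5.42% of the regions of 19p13.3 and 5.08% of those of 19p13.1-p13.2, but 11.6% of those of 19q13.1-q13.3 and 18.8% (18 of 96) of those of the zinc finger clusters. For lacZ these shares were 6.40%, 6.60%, 5.82% and 6.25%. Most of the recurrent lacZ regions also held a DOC1 peak. Of 135 regions found in every lacZ library, DOC1 1 held 93 (68.9%), DOC1 2 held 43 (31.9%) and DOC1 3 held 115 (85.2%), close to 67.7%, 30.0% and 84.2% over all chromosomes. In 19p13.3 DOC1 1, DOC1 2 and DOC1 3 held 29, 9 and 34 of 42 (69.0%, 21.4% and 81.0%). In 19p13.1-p13.2 they held 17, 9 and 27 of 31 (54.8%, 29.0% and 87.1%), in 19q13.1-q13.3 they held 38, 19 and 43 of 49 (77.6%, 38.8% and 87.8%), and in the zinc finger clusters 9, 6 and 11 of 12 (75%, 50% and 91.7%).

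**Figure D4:**
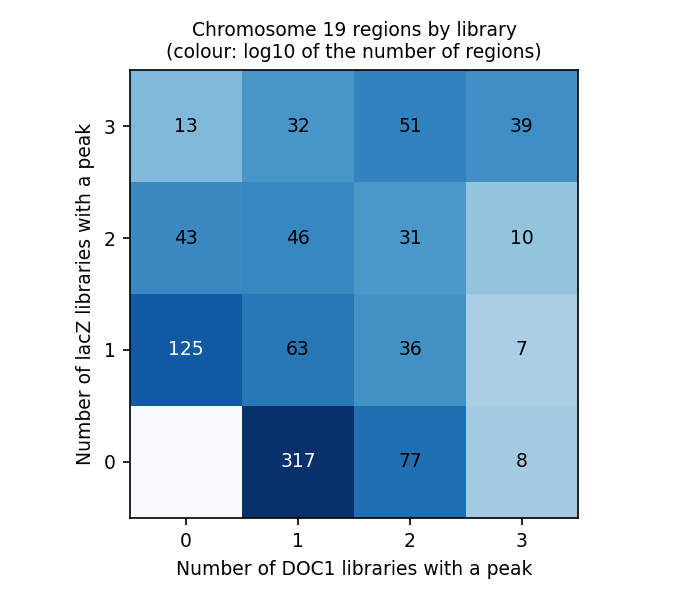
Number of chromosome 19 regions by the number of lacZ libraries (vertical axis) and DOC1 libraries (horizontal axis) with a peak there, coloured by the log10 of the number. The corner cells hold 13 regions of every lacZ and no DOC1 library, 8 of the opposite kind and 39 of all 6, while 317 regions have a peak in 1 DOC1 library alone.

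The 39 regions of all 6 libraries stood high in their lists. Their median fold stood at the 95.1st, 85.1st and 92.7th percentile of the lacZ 1, lacZ 2 and lacZ 3 lists and at the 89.2nd, 74.1st and 97.98th of the DOC1 1, DOC1 2 and DOC1 3 lists. The median distance of a library's summit from the region's median summit ranged from 15 bp in lacZ 1 to 47.5 bp in DOC1 2. The 6 summits of a region spanned a median of 130 bp, between 31 and 809 bp, and stayed within 100 bp in 11 of the 39. Of these regions 9 lay in 19p13.3, 5 in 19p13.1-p13.2, 19 in 19q13.1-q13.3 and 6 in the zinc finger clusters. They gathered between 46 and 50 Mb, where 12 of them lay, with 4 each in the megabases starting at 46, 47 and 49 Mb. The megabase from 2 to 3 Mb, in contrast, had 41 regions and 0 of all 6 libraries, and the one from 45 to 46 Mb had the most regions, 48, with 1 of all 6.

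Regions are named by position, because the gene table used here is of another genome build (GRCh38). Fold enrichment is the authors' value for the peak in its own list and describes the site only there. The best-ranked region of all 6 libraries lay at chr19:50178756-50180094. Its folds were 19.2, 14.9 and 13.4 in lacZ 1, lacZ 2 and lacZ 3 and 14.6, 10.9 and 13.8 in DOC1 1, DOC1 2 and DOC1 3. Its summits held 125, 68, 49, 32, 30 and 75 reads in the same order of libraries. It was among the top 108 peaks of each list. The next, chr19:18667570-18668876 in 19p13.1-p13.2, had folds of 14.0, 15.9, 12.2, 11.6, 8.25 and 9.83 in the same order, and chr19:4869711-4870537, the best in 19p13.3, had 14.5, 10.2, 18.2, 13.9, 11.8 and 15.0.

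Other regions of all 6 libraries lay at chr19:46785752-46786286, chr19:36623209-36624020, chr19:49091872-49092762, chr19:41337743-41338523 and chr19:55843133-55843691. At chr19:36623209-36624020 the 3 lacZ folds, 18.5, 15.998 and 18.9, lay above the 3 DOC1 folds of 9.55, 8.92 and 10.7. Since folds belong to their lists, no test was made of this. The region at chr19:55843133-55843691, the best in the zinc finger clusters, had folds of 9.58, 7.19 and 9.16 with lacZ and 12.9, 7.10 and 10.9 with DOC1. The longest region of the chromosome, chr19:46144623-46146699, was 2077 bp long and also held peaks of all 6 libraries, with folds between 5.70 and 10.4.

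Among the 13 regions with peaks of all lacZ libraries and none with DOC1, the best-ranked lay at chr19:45829642-45830077 in 19q13.1-q13.3. Its folds were 8.94, 10.0 and 10.6 and its summits held 39, 29 and 25 reads in lacZ 1, lacZ 2 and lacZ 3. A region at chr19:734129-734595 in 19p13.3 followed, with folds of 8.07, 7.06 and 9.40 and 35, 20 and 22 reads. The third, chr19:23692627-23693434, was the only one of the 13 in the zinc finger clusters, with folds of 7.12, 7.69 and 7.30. Then came chr19:11404195-11404573, chr19:47759205-47759729, chr19:30178860-30179324, chr19:4634252-4635071 and chr19:44216025-44216443, with folds between 5.46 and 11.0. The region at chr19:30178860-30179324 was the only one between 24 and 32 Mb that more than 1 library shared, and a peak of 1 DOC1 library ended just before it, at position 30178795. When peaks within 500 bp were merged, 6 of the 8 named lacZ regions kept their pattern.

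Among the 8 regions with peaks of all DOC1 libraries and none with lacZ, chr19:54618554-54619305, beyond 52 Mb, stood far above the rest. Its folds were 11.9, 10.1 and 16.3 and its summits held 23, 24 and 77 reads in DOC1 1, DOC1 2 and DOC1 3, and it was among the top 78 peaks of each of these lists. The next, chr19:5903717-5904313 in 19p13.3, had folds of 7.48, 7.26 and 10.2. It was followed by chr19:47538897-47539633, chr19:48281150-48281963, chr19:46704424-46705103, chr19:56146114-56146471, chr19:49496449-49497222 and chr19:6720558-6721112, with folds between 4.30 and 10.1. The weakest, chr19:6720558-6721112, stood at the 12.7th, 16.7th and 56.4th percentile of the DOC1 1, DOC1 2 and DOC1 3 lists by fold. In lists cut to equal length 5 of the 8 named lacZ regions and 3 of the 8 DOC1 regions kept their pattern, and all 8 regions of all 6 libraries did. The ranks by which regions were picked bear on these counts. The 8 regions of all 6 libraries had worst ranks by fold of 818 or better. The last of the DOC1 regions had 6793, and the lists were cut to 2812 peaks.

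**Figure D5:**
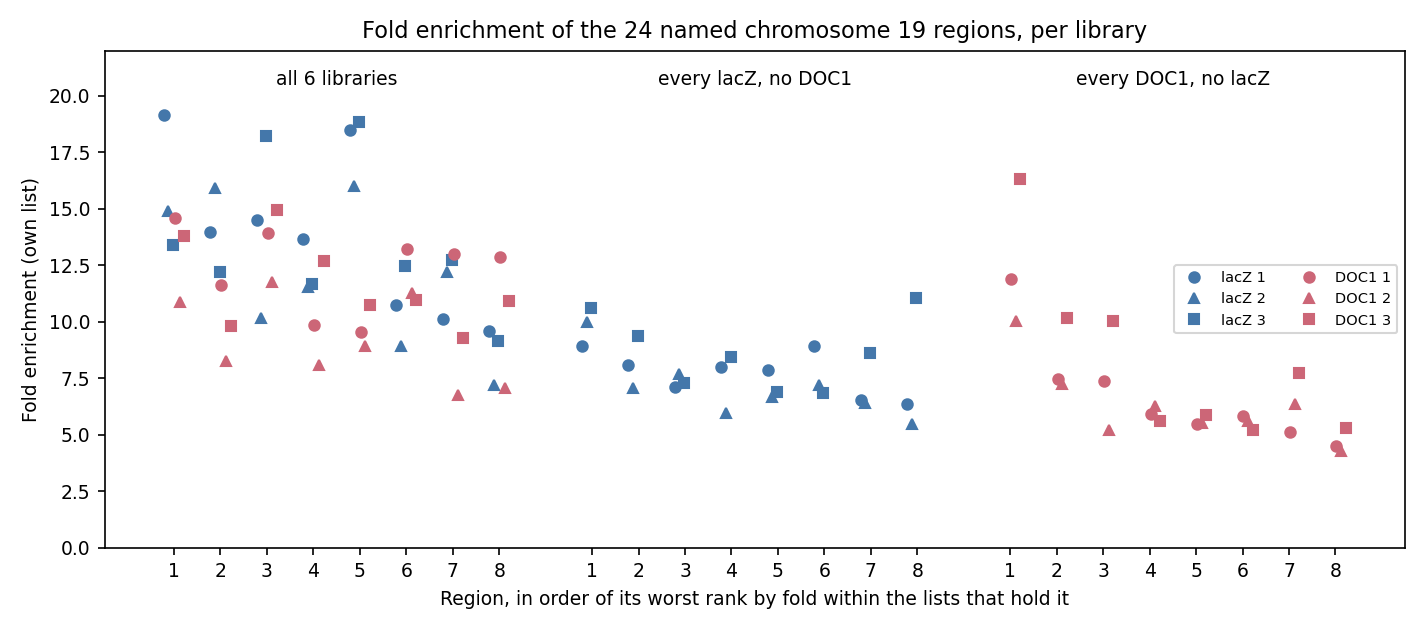
Fold enrichment, as the authors' peak caller gave it within each list, of the 8 best-ranked chromosome 19 regions of all 6 libraries (left), of every lacZ and no DOC1 library (middle) and of every DOC1 and no lacZ library (right), with 1 point per library that has a peak. The first DOC1 region, at 10.1 to 16.3, reaches the level of the regions on the left, and the other 7 lie between 4.30 and 10.2.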

How the data were processed

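The 6 CHD4 libraries of 50 bp single reads (18 PCR cycles per the labels' protocols, no molecular identifiers named) came as 1 narrowPeak list each. Per the submitters' processing notes, Trimmomatic 0.33, BWA 0.7.12-r1039, SAMtools 1.2 and MACS2 2.1.1.20160309 were used on hg19 (GRCh37); the sources used here do not give their settings, any removal of reads or the control used. Each deposited fold enrichment is a ratio within its own list. The deposited −log10 p-values and q-values set the order for cutting lists, and the deposited score was not used. The largest q-value listed lay between 0.00890 and 0.00972.

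Groups and replicate numbers came from the titles. A peak was assigned to a part of the chromosome by its summit and a region by its midpoint. Per-library values were compared by exact permutation of the libraries between groups, two-sided, on the difference in mean (scipy 1.17.1, pandas 2.3.3 and numpy 2.4.6 under Python 3.11.15). Summit reads were recovered as the whole number that, times 1 factor per library, matches both fold and p-value, with the background agreeing within 0.002 reads for at least 99.9% of the peaks of each list. In simulated lists 100% of summit reads and 200 of 200 planted regions of each kind were recovered. This checks the code only. The reads were simulated with the same formula that recovers them, and the regions were planted well apart, unlike many regions here. Alternatives were a −log10 q of at least 3, lists cut to their top 2812 peaks by p-value, each library left out, covered base pairs in place of peaks, chromosomes 9 and 13 left out of the total, merging within 500 bp, and summits widened by 100 bp to each side. Named regions are up to 8 of each kind with the best worst rank by fold in the lists that hold them, the best region of each part and the longest one, with the 5 Mb windows of the highest and lowest difference. The members, parts and lists were chosen with earlier results of these data known. No genome or annotation of hg19 was used here, so no gene or sequence is given for a region.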

Additional observations from a re-analysis of the deposited data

How the results depend on the processing

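DOC1 libraries had a lower share of peaks on chromosome 19, in 19p13.3 and in 19p13.1-p13.2. The ratio to chromosomes 16, 17, 20 and 22 was lower too. These differences and the shifted makeup of the peaks kept their direction under every alternative listed above and in shared regions. Exact permutation p was 0.1, the smallest possible, or more. Merging within 500 bp and summits could not change these values, because shares were counted over peaks before merging. Other subsets did not all keep the direction. Without DOC1 2, the 19p13.1-p13.2 difference was 0.0111 percentage points in regions of 1 library alone. The zinc finger makeup difference was -0.00048 in regions with peaks of both groups, also without DOC1 2. The difference in the chromosome 19 share ranged from -2.59 to -1.38 percentage points with 1 library left out, and was -1.36 without DOC1 2 in lists cut to equal length, a setting added after seeing the data, as was that of shared regions. Some small differences turned. That of the zinc finger clusters as a share of all peaks was 0.0556 in shared regions, 0.0035 in covered base pairs, 0.0593 with equal length and no DOC1 2, and -0.0740 to 0.0556 with 1 library left out. That of 19q13.1-q13.3 was 0.0705 in shared regions, and -0.752 to -0.215 with 1 library left out. Between 24 and 32 Mb, with 1 to 4 peaks per library, it was -0.0119 in lists of equal length, -0.0237 in those without DOC1 2, -0.0277 in shared regions and -0.00277 to 0.00898 with 1 library left out, and as a share of chromosome 19 peaks -0.338 and -0.417 in those without DOC1 2 and in shared regions. The median width difference of -7.33 bp was 17.3 bp in lists of equal length, 56.2 bp in those without DOC1 2 and -40.5 to 23.7 bp with 1 library left out. The fold percentile difference of -1.60 was 1.63, 1.58 and -4.04 to 0.658 in the same settings. The cause of these turns was not tested.

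The 13 lacZ regions became 21 in lists of equal length, 22 in those without DOC1 2 and 13 to 42 with 1 library left out, while the number over all chromosomes went from 221 to 337, 354 and 224 to 672. The 8 DOC1 regions became 4, 14 and 7 to 80, against 184 and then 107, 398 and 190 to 2001 over all chromosomes. The 39 regions of all 6 libraries became 38 to 86 with 1 left out, where fewer libraries are asked for. Over all chromosomes that number went from 518 to between 517 and 1196. The share of all 5 Mb windows with DOC1 below lacZ was 14.2 to 16.8% with 1 library left out, when 5 to 7 of the chromosome 19 windows lay below. Same-numbered libraries did not deviate together in the presence of peaks (correlations across regions of 0.01, 0.03 and -0.02). This cannot tell whether they were prepared as pairs, because presence in a list also depends on the length of the list. With the replicate block, which pairs same-numbered libraries, the chromosome 19 difference was -2.16 percentage points (exact sign-flip p = 0.25, the smallest possible). The mean of the paired differences equals the difference of the group means, so no direction could change in this setting.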
